A study of Mus musculus with 24 samples.

Results

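The histone genes described here were the protein-coding mouse genes whose symbol begins with Hist1h, Hist2h, Hist3h or Hist4h, or with the newer roots H1f, H2ac, H2bc, H3c or H4c. The rule used symbols only and no measured value. It found 71 members among 52178 genes, and 3 further genes with such symbols that are not annotated as protein-coding were left out. Of the 71, 67 carried a Hist symbol (6 of H1, 18 of H2A, 18 of H2B, 12 of H3 and 13 of H4). The other 4, H1f0, H1fx, H1fnt and H1foo, are linker histones whose genes are not tied to DNA replication, so the label of replication dependence did not hold for them and they are given apart. In 22 libraries, H1fnt was listed at 0 in 21 and H1foo in 20, and 66 members passed the filter on low counts, 64 of them Hist genes.

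The study cultured mouse hip caps and metatarsals for 24 h, placed them under hydrostatic pressure for 1 h and kept them for 24 h more before RNA was taken. Hip caps, the cartilage that covers the head of the femur, came from male C57/BL6 mice aged 4 weeks (the methods of the study give the strain of both tissues as C57/BL6J), and both caps of 1 mouse formed 1 library. Metatarsals, the cartilaginous rudiments of the foot bones, came from C57/BL6 embryos at day 15 of gestation whose sex was not determined, and 6 bones were pooled for each library. All animals were wild type, and each tissue was held at 0 MPa (the control, cultured in the same way without pressure), 5 MPa (called physiological) or 50 MPa (called injurious), with 4 libraries in each of the 6 groups. The methods also give each tissue its own culture medium, Dulbecco's Modified Eagle Medium for hip caps and a supplemented α-Minimum Essential Medium for metatarsals. Tissue, age, sex and medium therefore cannot be told apart in these libraries.

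Total RNA depleted of ribosomal RNA was sequenced, which also captures transcripts without a poly(A) tail, and the methods describe the RNA as partly degraded. The authors left out hip cap 0 MPa replicate 4 (HC4) and hip cap 50 MPa replicate 2 (H502), and the values below rest on the other 22 libraries unless these are named. Library totals ran from 4185557 to 25104484 estimated counts over all 24, and the Hist genes held between 3201 and 46930 counts in a library used, or 0.0611 to 0.210% of its total. Libraries fell into 2 library types (6 were labelled unstranded) and, as read from the colours of a figure of the study, 2 sequencing runs (9 and 15 libraries). These run sizes differ from those in the methods, so the run of each library is uncertain here and below. On that reading all 3 unloaded hip caps used belonged to the first run, whereas all hip caps at 5 MPa belonged to the second. Nothing in the labels names separate cultures beyond the animals and pools above, so p-values measure the spread between these libraries. In bulk tissue, fewer cells of a type and less RNA per cell cannot be told apart.

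Histones package DNA into nucleosomes. H2A, H2B, H3 and H4 build the core around which the DNA winds, and H1 binds the linker between cores. The genes named Hist are mostly transcribed in S phase, when a dividing cell needs histones for the new DNA, and they lie in clusters. Their transcripts end in a short stem-loop in place of a poly(A) tail. The stem-loop is bound by SLBP, cut by the U7 particle, and used again in the rapid decay of the transcript when replication stops. Chondrocytes of a growing rudiment divide in the proliferative zone and stop when they enlarge, and replication-independent variants such as H1.0 and H3.3 replace part of the S-phase histones in cells that have left the cycle.

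In the GENCODE annotation (GRCm38), 54 of the 67 Hist genes lay on chromosome 13 between bases 21715763 and 23934851, 10 on chromosome 3 between 96219865 and 96270132, 2 on chromosome 11 between 58948920 and 58956830, and Hist4h4 alone on chromosome 6. A stem-loop of 16 bases was found in the transcript models of 42 of the 67, in 0 of the 4 H1f genes, and in 3 of 21782 other protein-coding genes (0.0138%). The remaining 25 Hist models held no match, which says only that these letters were not in the model. The 42 matches had 5 distinct sequences. The ones shown belong to the members on which the results below turn or stand for a form of the stem-loop, with the stem-loop in capitals and 5 bases on each side, in the strand of the transcript.
Hist1h1c: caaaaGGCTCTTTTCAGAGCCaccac
Hist2h2aa1 and Hist2h2aa2: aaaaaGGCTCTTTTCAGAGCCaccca
Hist2h2ac: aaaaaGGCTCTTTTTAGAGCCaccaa
Hist3h2a: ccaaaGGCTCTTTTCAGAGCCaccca
Hist3h2ba: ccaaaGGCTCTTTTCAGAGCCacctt
Hist1h3c: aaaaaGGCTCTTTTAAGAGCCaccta
Hist4h4: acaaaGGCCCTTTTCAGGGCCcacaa
Hist2h4: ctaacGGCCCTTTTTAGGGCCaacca

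The form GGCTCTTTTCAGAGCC stood in 26 genes of H1, H2A, H2B and H3, and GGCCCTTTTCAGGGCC in 7 genes, all of H4. The rarer forms were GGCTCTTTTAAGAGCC in 6 genes of H1, H2B and H3, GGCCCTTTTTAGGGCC in 2 H4 genes, and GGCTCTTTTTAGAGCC in Hist2h2ac alone. Most models did not stop at the stem-loop. They ran on for a median of 112.5 bases (range 3 to 4884), and 21 stopped within 100 bases. The model of Hist3h2a went 1643 bases further, that of Hist4h4 2445 and that of Hist1h1c 840, so their counts could include reads from RNA that continues past the stem-loop, as polyadenylated histone transcripts do.

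Promoters were available from RefSeq (GRCm38.p6) for 62 of the 67 Hist genes, as windows of 250 bases before and 50 after the start. The CCAAT box, searched on both strands, was found in all promoters of H1 (6), H2A (18), H2B (16) and H3 (10), but in 3 of 12 of H4, against 37.4% of 32851 promoters of all genes. The H4 promoters instead held GGTCC, the core of the H4 site II, in 11 of 12, against 45.5% of all promoters. The octamer ATTTGCAT stood in 7 of 18 H2A and 6 of 16 H2B promoters and in 0 promoters of the other families, against 1.74% of all promoters. AAACACA, the AC box, stood in 5 of 6 H1 promoters, against 7.18%. Also searched was the TATA box, as TATAAA, which stood in 4 of 6 H1, 11 of 18 H2A, 8 of 16 H2B, 4 of 10 H3 and 8 of 12 H4 promoters, against 13.6%. A few promoters are shown, as the 250 bases before the start in the strand of the gene, with matches to the CCAAT box, the TATA box, the octamer and the site II core on either strand in capitals. Hist3h2a and Hist3h2ba were chosen because they moved together below, Hist2h2ac because its window lies between it and its divergent neighbour Hist2h2be, and Hist1h4k as an H4 promoter.
Hist3h2a (chr11:58954435-58954684, + strand): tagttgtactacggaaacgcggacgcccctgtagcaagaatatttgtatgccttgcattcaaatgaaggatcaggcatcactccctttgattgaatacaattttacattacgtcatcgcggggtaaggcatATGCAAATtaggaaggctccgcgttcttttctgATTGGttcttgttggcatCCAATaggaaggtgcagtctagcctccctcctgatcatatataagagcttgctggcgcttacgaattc
Hist3h2ba (chr11:58948661-58948910, + strand): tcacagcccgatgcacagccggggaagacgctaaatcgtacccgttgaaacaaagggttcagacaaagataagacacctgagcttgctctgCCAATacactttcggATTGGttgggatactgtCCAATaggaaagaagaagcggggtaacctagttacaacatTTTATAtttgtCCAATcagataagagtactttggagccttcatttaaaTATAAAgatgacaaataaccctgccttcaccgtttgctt
Hist2h2ac (chr3:96220881-96221130, - strand): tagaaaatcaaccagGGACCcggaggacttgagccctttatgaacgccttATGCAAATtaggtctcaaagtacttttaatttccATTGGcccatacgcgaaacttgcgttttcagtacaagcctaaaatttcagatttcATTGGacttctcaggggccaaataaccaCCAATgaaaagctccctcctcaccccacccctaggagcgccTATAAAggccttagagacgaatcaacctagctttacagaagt
Hist1h4k (chr13:21750554-21750803, - strand): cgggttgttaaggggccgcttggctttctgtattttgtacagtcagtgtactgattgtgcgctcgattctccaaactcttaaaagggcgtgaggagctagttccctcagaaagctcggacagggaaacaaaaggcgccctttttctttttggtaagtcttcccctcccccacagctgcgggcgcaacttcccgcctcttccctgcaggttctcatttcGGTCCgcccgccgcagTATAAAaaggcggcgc

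Histone genes of a family are near-copies, and the program that assigned the reads had to divide reads that match several of them. Cut into words of 31 bases, the median Hist model shared 60.2% of its words with other genes. The median was 77.1% in H2A, 63.1% in H3, 57.4% in H2B, 47.9% in H4 and 3.82% in H1. Single values of highly shared members are therefore uncertain, and 41 of the 67 shared over 50% of their words. Hist2h2aa1 and Hist2h2aa2 show the problem in the plot of twin copies: Hist2h2aa2 shares 100% of its words, and the part of the pair assigned to Hist2h2aa1 ran from 0 to 70.8% in metatarsals and from 1.40 to 67.3% in hip caps. A sum over a pair or a family removes the division among its own members, but not that with genes outside it. All words of Hist2h2aa1, Hist2h2aa2, Hist2h2bb, Hist2h3b and Hist2h3c1 also stand in overlapping non-coding transcripts on chromosome 3, such as Gm20632, Gm20633, Gm20634 and Gm20628. Of the words of Hist3h2a, 32.1% stand in Trim17, a gene that overlaps it. Gm20628, annotated as antisense, held 67 to 474 counts in the 6 unstranded libraries and 7 to 71 in the 18 stranded ones, without overlap per library total (7.48 to 43.5 CPM and 0.956 to 3.08 CPM), and all hip caps at 50 MPa were unstranded. Its part in the values of Hist2h2bb and Hist2h3b was not tested.

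The members differed widely in level. Levels between genes are compared here as CPM, the counts of a gene per library total after TMM scaling (TMM CPM) per kilobase of transcript model, as a mean over 22 libraries. Among linker histones, Hist1h1c (H1.2) stood at 71.7, H1f0 (H1.0, the linker histone of resting and differentiated cells) at 61.0 and Hist1h1e (H1.4) at 39.0. Hist2h2aa2 at 124, Hist1h2ap at 74.2 and Hist1h2ai at 49.6 led H2A. In H2B the leading members were Hist2h2bb at 48.9, Hist1h2bb at 34.3 and Hist1h2bc at 28.5.

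The H3 genes with the highest levels on the same per-kilobase scale were Hist2h3b at 60.1, Hist1h3i at 53.2 and Hist1h3b at 35.9. For H4 they were Hist1h4h at 93.5, Hist1h4m at 67.8 and Hist1h4k at 61.0. Outside the large clusters, Hist3h2a stood at 6.65, Hist4h4 at 6.01 and Hist3h2ba at 1.91 per kilobase. Some cluster genes were as low, such as Hist1h2ac at 3.81 and Hist2h2be at 1.38. Hist3h2a and Hist4h4 have long models (2146 and 2863 bases), which lowers their values on this scale. Before division by length their means were 14.3 and 17.2 TMM CPM, beside 19.0 for Hist1h4k with its model of 312 bases. The testis members were at or near 0: Hist1h2aa was listed at 0 in all 22 libraries, Hist1h2ba stood at 0.0468 and was listed at 0 in 17, and Hist1h1t stood at 0.313.

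The proportions of the 5 families varied between groups, least in H1 and most in H4. As a percentage of all Hist counts in a library, H1 had group means between 20.7 and 21.6%, H2A between 17.2 and 23.6%, H2B between 11.6 and 15.8%, H3 between 13.3 and 17.6%, and H4 between 24.1 and 33.5%. The highest H4 share, 33.5% ± 9.10 (SD, n = 3), was that of hip caps at 50 MPa, where single libraries ran from 24.9 to 43.1%, so that it overlapped the 25.9 to 31.5% of unloaded hip caps. No test was made on these shares.

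The summed level of all Hist genes in unloaded hip caps was 1814, 1161 and 2061 TMM CPM (HC1 to HC3), and 2302 in HC4, which the authors left out. Unloaded metatarsals (MC1 to MC4) had 613, 801, 893 and 1197. The sums overlapped, with HC2 below MC4. With 5 MPa the hip caps had 982, 1187, 2419 and 802 (H51 to H54) and the metatarsals 906, 748, 1128 and 1017 (M51 to M54), and only H53 stood far above the rest. At 50 MPa the hip caps had 1209, 1216 and 1431 (H501, H503 and H504) and the metatarsals 1036, 1005, 897 and 1744 (M501 to M504).

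These sums depend on the scaling between tissues. The TMM factors ran from 0.427 to 1.12 in hip caps and from 1.08 to 1.55 in metatarsals. On total counts, the hip cap mean at 0 MPa was 0.991 times that of the metatarsals for H1, 1.08 times for H2A, 0.754 times for H2B, 1.09 times for H3 and 1.07 times for H4. With library sizes alone, the median log2 difference between hip caps and metatarsals over all genes moved to -0.97 at 0 MPa, -0.70 at 5 MPa and -0.90 at 50 MPa. Differences between tissues are therefore given relative to the TMM scale, with total counts beside them where a direction is at stake.

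**Figure D1:**
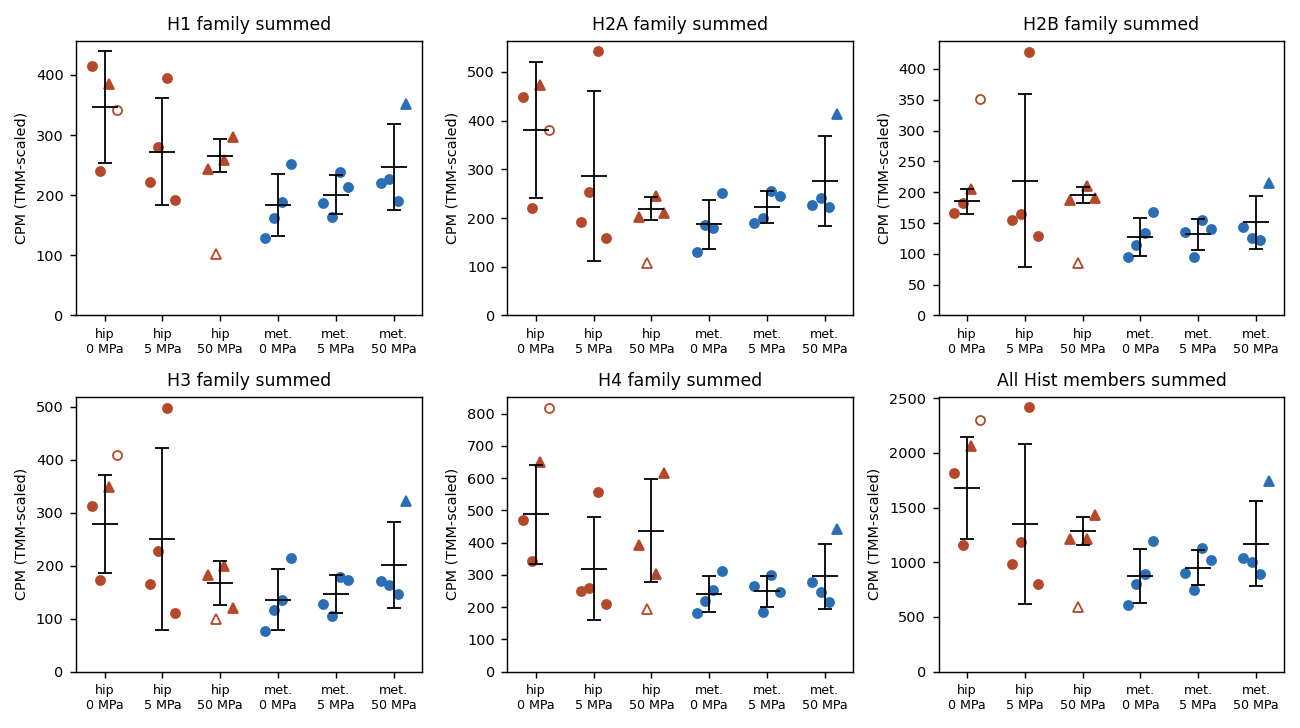
Panels give the summed TMM CPM of H1, H2A, H2B, H3, H4 and all Hist genes in every library by group (circles stranded, triangles unstranded, open symbols the 2 libraries left out by the authors, bars mean ± SD of the libraries used). The unloaded hip caps have higher means than the unloaded metatarsals on this scale, though not on total counts for H1 and H2B, and H53 and M504 stand above the others of their groups.

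The first comparison set hip caps against metatarsals at each pressure. Of the 66 members tested with edgeR, 7 were higher and 3 lower in hip caps at 0 MPa at an adjusted p of at most 0.05, where 29.9% of all genes tested were called, 14.1% higher and 15.9% lower. At 5 MPa, 13 were higher and 4 lower, beside 37.9% of all genes (18.8% higher and 19.1% lower). At 50 MPa, 0 were higher and 3 lower, beside 19.7% (10.1% higher and 9.58% lower). DESeq2 called 15, 18 and 6 of 67. The share of all genes that DESeq2 called is not given here or below, and the edgeR shares are no background for its counts.

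Most Hist genes had a fitted log2 fold change above 0 at the lower pressures. The median log2 fold change of the 64 Hist genes was 0.78 at 0 MPa, with 55 positive, and 0.48 at 5 MPa, with 54 positive, while the medians of all genes were -0.08 and -0.08. It was -0.40 at 50 MPa, with 22 positive, beside -0.01 for all genes. Over the 22 fits that left out a library the median ran from -0.62 to 0.51 at 50 MPa, so its sign was not stable. It ran from 0.11 to 1.22 at 0 MPa and from 0.05 to 0.75 at 5 MPa. The mean summed level at 50 MPa was 1285.5 TMM CPM in hip caps and 1170.4 in metatarsals. With library sizes alone the Hist medians were -0.10, -0.15 and -1.22 and the calls were 0 higher and 6 lower, 0 and 6, and 0 and 20, so no member was called higher on that scale. The share of all genes called on that scale is not given. Over protein-coding counts, a scale on which no fit was made, the hip cap mean of unloaded tissue was 1.37 times the metatarsal mean for H1, 1.47 for H2A, 1.05 for H2B, 1.48 for H3 and 1.46 for H4. The share of protein-coding genes in all counts differed in the same comparison, at 33.9 to 44.6% in unloaded hip caps and 50.7 to 57.8% in unloaded metatarsals, and at 5 MPa it was 48.6 to 65.8% and 56.3 to 72.4%. At 50 MPa it was 27.5 to 58.4% in the former tissue and 57.0 to 70.6% in the latter. Its part in the histone differences was not tested. All values of a Hist gene in hip caps lay above those in metatarsals for 20 of 64 at 0 MPa and below them for 4, which makes 37.5% without overlap beside 42.4% of all genes. For 5 MPa these counts were 5 and 2 (10.9% beside 40.8%), and at 50 MPa 1 and 7 (12.5% beside 39.9%). Over the 3 pressures, the fitted log2 fold change was above 0 each time for 20 of the 64 and below 0 for 6, called or not, and 2 members, Hist3h2a and Hist3h2ba, were called at all 3.

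**Figure D2:**
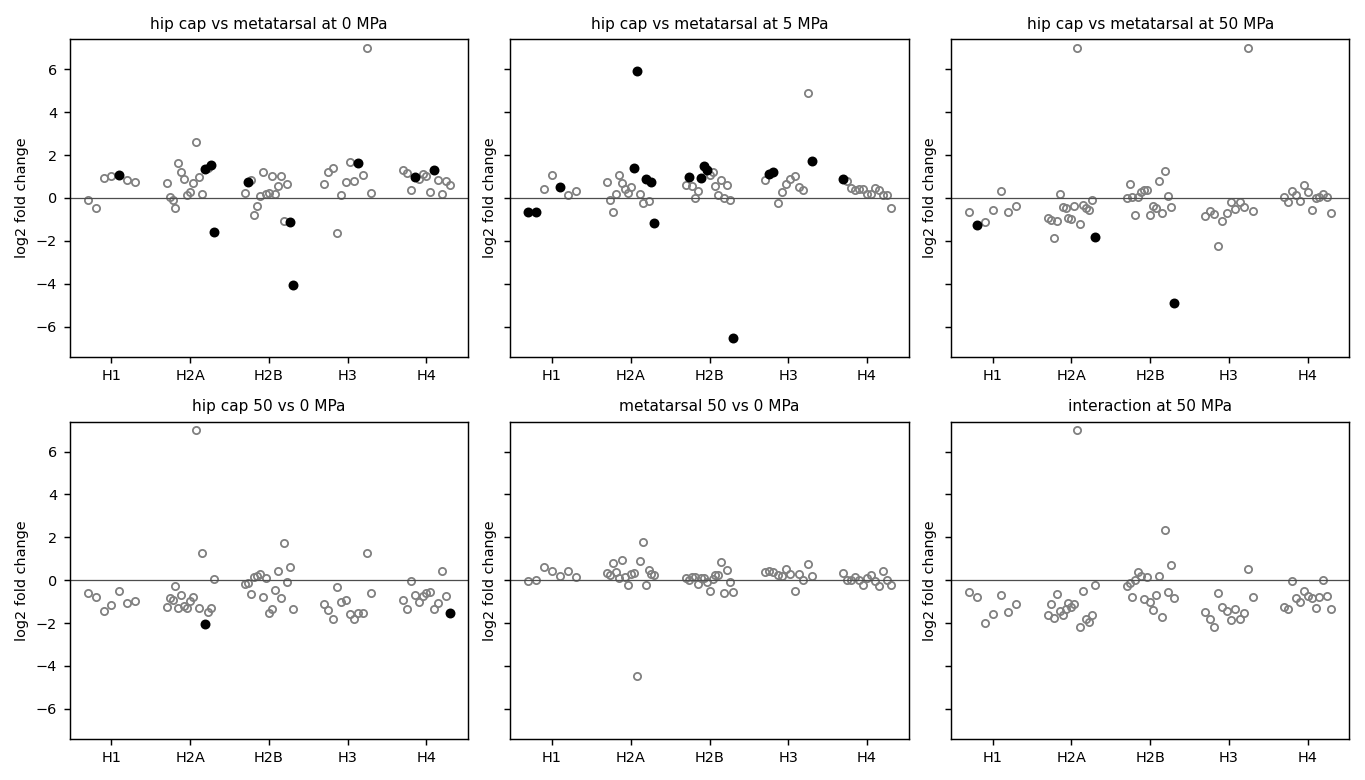
Points give the log2 fold change of each tested member by family in 6 comparisons, with filled points at an adjusted p of at most 0.05 and values beyond ±7 drawn at the limit. On the TMM scale most points lie above 0 in the tissue comparisons at 0 and 5 MPa, which library sizes alone turn below 0 at the median, and below 0 for hip caps at 50 against 0 MPa.

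Among the linker histones, Hist1h1c was the member called higher in hip caps at both 0 and 5 MPa. It had 177, 112 and 167 TMM CPM in unloaded hip caps and 55.9, 67.6, 78.0 and 113 in unloaded metatarsals, which overlapped by a single pair, HC2 and MC4. The log2 fold change was 1.05 (SE 0.29, adjusted p = 0.00883), and it was 0.54 (adjusted p = 0.460) without MC1, the metatarsal library that shares the run of the unloaded hip caps. Hip caps at 5 MPa had 116, 151, 145 and 112 and metatarsals 80.1, 78.1, 109 and 95.2, without overlap. The difference was 0.53 (SE 0.20, adjusted p = 0.0360), and -0.065 with library sizes alone.

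A share within the H1 family does not depend on the scaling. Somatic H1 was taken here as Hist1h1a to Hist1h1e together with H1f0, so the shares of its members depend on each other. Hist1h1c made up 30.0 to 41.3% (median 35.4%) of somatic H1 counts in the 10 hip cap libraries and 21.7 to 27.8% (median 25.1%) in the 12 metatarsal libraries. The ranges did not overlap. H1f0 took the opposite place, with 18.3 to 36.7% (median 27.0%) in hip caps and 31.03 to 48.0% (median 40.6%) in metatarsals, and these ranges overlapped. Without H1f0 in the total, the tissues overlapped for Hist1h1c as well. H53 held 2809 counts of Hist1h1c among 7656 of the H1 Hist genes, and M52 held 1445 among 3028.

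H1f0, on chromosome 15 from 79028450 to 79030504, had 134, 99.1 and 141 TMM CPM in unloaded hip caps and 116, 150, 126 and 164 in unloaded metatarsals, with a log2 fold change of -0.07 (SE 0.24, adjusted p = 0.854). Under 5 MPa its hip cap values were 85.4, 87.0, 88.5 and 111 and its metatarsal values 130, 149, 168 and 130, with no overlap. That difference was -0.63 (SE 0.17, adjusted p = 0.00569) and kept its call in the comparison of library sizes alone, at -1.26. At 50 MPa it was -0.64 (SE 0.25, adjusted p = 0.0768), with H504 at 136 inside the metatarsal range of 136 to 157. H1fx, the H1.10 linker, was lower in hip caps under pressure, at -0.65 for 5 MPa (SE 0.24, adjusted p = 0.0390) and -1.24 for 50 MPa (SE 0.35, adjusted p = 0.0143). Its call at 50 MPa was lost without M504, where it was highest at 21.4 TMM CPM, with -0.72 (adjusted p = 0.630), and 12 of 22 fits that left out a library lost the call at 5 MPa.

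In the H2A family, Hist3h2a was lower in hip caps at every pressure. The gene codes for an H2A outside the large clusters and shares 32.1% of its words. Unloaded hip caps had 5.16, 7.80 and 5.53 TMM CPM and unloaded metatarsals 17.6, 17.3, 14.6 and 23.1. At 5 MPa the values were 6.73, 8.51, 13.7 and 7.37 against 19.7, 17.6, 23.3 and 22.1. At 50 MPa they were 6.01, 6.66 and 5.88 against 22.2, 20.8, 19.0 and 23.5. No hip cap library reached the lowest metatarsal library at any pressure, including the 6.36 of HC4 and the 4.56 of H502. The log2 fold changes were -1.61 (SE 0.29, adjusted p = 0.00026), -1.19 (SE 0.19, adjusted p = 4.91e-05) and -1.81 (SE 0.29, adjusted p = 9.38e-05).

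The tissues were also apart without scaling between them. On total counts Hist3h2a ran from 2.51 to 11.5 in hip caps and from 16.8 to 33.2 in metatarsals, and it made up 1.15 to 4.64% of H2A counts in hip caps and 5.68 to 13.5% in metatarsals. With library sizes alone the log2 fold changes were -2.51, -1.81 and -2.67. The call held in all 22 fits that left out a library at 0 and at 5 MPa. At 50 MPa it was lost without M504 (-1.45, adjusted p = 0.159), the single metatarsal library at that pressure that shares the run and the library type of the hip caps.

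Its neighbour Hist3h2ba codes for an H2B, lies on the same strand with a start 5765 bases upstream, and showed the same direction. It was listed at 0 in HC1, HC2, H51, H52, H54, H501 and H504, and it stood at 0.286 TMM CPM in HC3, 0.0515 in H53 and 0.139 in H503. Metatarsals had 1.72, 2.94, 2.00 and 2.62 at 0 MPa, 1.98, 1.62, 2.41 and 2.30 at 5 MPa, and 2.25, 2.00, 1.44 and 2.06 at 50 MPa. No hip cap library used came near them. Of the libraries left out, HC4 stood at 0.848, and H502 at 1.57 lay inside the metatarsal range, above the 1.44 of M503.

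The groups of hip caps held 3, 1 and 2 counts of Hist3h2ba in all, against 133, 169 and 130 in the metatarsals. Pooled over a group and scaled, the level in metatarsals was 16.7 times that in hip caps at 0 MPa (exact 95% interval 5.59 to 81.9), 147 times at 5 MPa (26.1 to 5857) and 26.2 times at 50 MPa (7.11 to 219), where the intervals cover counting error only. The fitted log2 differences were -4.06 (SE 0.77, adjusted p = 0.000414), -6.53 (SE 0.62, adjusted p = 3.30e-08) and -4.89 (SE 0.80, adjusted p = 0.000116), and their size depends on the prior count. The promoters of both genes, shown above, hold CCAAT boxes, and the octamer stands in that of Hist3h2a and not in the window of Hist3h2ba.

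**Figure D3:**
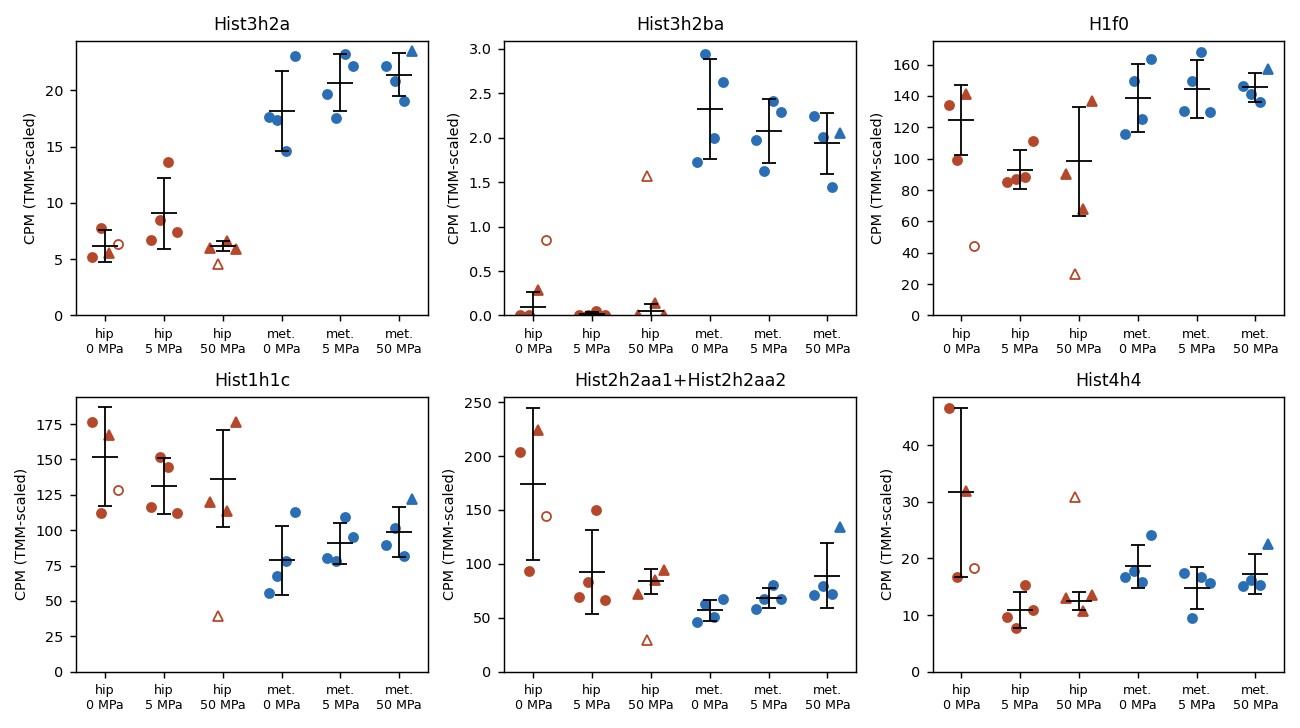
TMM CPM by library and group for Hist3h2a, Hist3h2ba, H1f0, Hist1h1c, the sum of Hist2h2aa1 and Hist2h2aa2, and Hist4h4 (circles stranded, triangles unstranded, open symbols the libraries left out by the authors, bars mean ± SD of the libraries used, cut at 0 below). Among the libraries not left out, Hist3h2a and Hist3h2ba are lower in hip caps on every scale used. Among them Hist4h4 is also higher in every unloaded hip cap than in hip caps at 50 MPa, while the sum of Hist2h2aa1 and Hist2h2aa2 overlaps between these groups.

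The divergent genes Hist2h2ac and Hist2h2be, an H2A and an H2B gene whose starts are 239 bases apart on chromosome 3, went opposite ways at 0 MPa. Hist2h2ac had 27.4, 9.87 and 36.3 TMM CPM in unloaded hip caps and 5.17, 8.83, 8.41 and 9.34 in unloaded metatarsals. Every hip cap value was above the metatarsals, HC2 by little, and the log2 fold change was 1.55 (SE 0.46, adjusted p = 0.0154). Hist2h2be had 2.72, 2.07 and 2.29 TMM CPM in the hip caps against 5.17, 4.55, 4.00 and 3.71 in the metatarsals, again with no overlap but in the other direction, at -1.12 (SE 0.32, adjusted p = 0.0117). Hist2h2ac lost its call without HC1, HC3, MC1 or M504 (adjusted p up to 0.260) and Hist2h2be without HC3, MC1 or M504 (adjusted p up to 0.175), and their values without MC1 were 1.24 and -1.11. At 5 MPa Hist2h2ac was higher by 0.76 (SE 0.29, adjusted p = 0.0448) and lost that call in 10 of 22 fits without a library. With library sizes alone Hist2h2ac was at 0.71 at 0 MPa, without a call, and Hist2h2be at -2.004.

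The twin genes Hist2h2aa1 and Hist2h2aa2, which code for the same replication-dependent H2A, are given as a sum, which removes the division between the copies. The sum was 204, 93.6 and 224 TMM CPM in unloaded hip caps and 46.5, 62.9, 50.9 and 67.0 in unloaded metatarsals, without overlap. The log2 fold change of the sum at 0 MPa was 1.43 (SE 0.35, adjusted p = 0.00405), beside 1.35 (SE 0.44, adjusted p = 0.0274) for Hist2h2aa2 alone, whose call was lost without HC1, HC3, MC1 or M504 (0.93 to 1.57, adjusted p up to 0.406). The call of the sum was lost without MC1 (1.05, adjusted p = 0.231). At 5 MPa the hip caps had 69.2, 83.2, 150 and 66.5 and the metatarsals 58.4, 67.7, 80.1 and 67.1, which overlapped. There Hist2h2aa2 alone was called higher at 0.89 (SE 0.30, adjusted p = 0.0263), while the sum was not, at 0.50 (SE 0.23, adjusted p = 0.0979).

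Reads of the pair could also go to Gm20632, Gm20633 and Gm20634, which held 6.71 to 27.8% of the counts of pair and overlapping genes together in the libraries used. A sum over all 5 genes, added after seeing the data, differed by 1.34 (SE 0.30, adjusted p = 0.00191) at 0 MPa, by 0.53 (SE 0.20, adjusted p = 0.0453) at 5 MPa, and by -0.43 (SE 0.29, adjusted p = 0.347) at 50 MPa. At 5 MPa the wider sum was called and the pair was not.

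The other H2A calls at 5 MPa were Hist1h2an and Hist1h2ao. Hist1h2an was higher by 1.42 (SE 0.43, adjusted p = 0.0130). Hist1h2ao was higher by 5.91 (SE 2.20, adjusted p = 0.0486), but it shares 93.8% of its words, and it had 17.7, 0.141, 0 and 17.4 TMM CPM in the hip caps against 0, 0.324, 0.294 and 0 in the metatarsals. The sum of Hist1h2ao and its near-copy Hist1h2ap differed by 0.54 (SE 0.36, adjusted p = 0.257).

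In the H2B family, Hist1h2bc was higher in hip caps at 0 and 5 MPa. It had 37.2, 42.3 and 46.7 TMM CPM in unloaded hip caps and 20.9, 21.99, 23.3 and 21.9 in unloaded metatarsals. At 5 MPa the values were 36.1, 42.0, 66.8 and 38.9 against 21.6, 21.3, 26.0 and 24.4, so neither pressure gave an overlap. The log2 fold changes were 0.76 (SE 0.25, adjusted p = 0.0244) and 0.98 (SE 0.17, adjusted p = 7.72e-05). At 0 MPa the call was lost without HC2 (0.67, adjusted p = 0.0595) or MC1 (0.49, adjusted p = 0.452). With library sizes alone the log2 fold changes of Hist1h2bc were -0.14 and 0.35, without a call.

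The other H2B genes called higher at 5 MPa were Hist1h2bj, by 1.51 (SE 0.35, adjusted p = 0.00191), Hist1h2bk by 1.32 (SE 0.49, adjusted p = 0.0443) and Hist1h2bh by 0.91 (SE 0.33, adjusted p = 0.0364). Hist1h2bj had 12.7, 12.1, 39.3 and 9.13 TMM CPM in hip caps and 5.30, 5.89, 8.07 and 6.55 in metatarsals, and its call held in all 22 fits without a library. The calls of Hist1h2bk and Hist1h2bh were lost without H53, which held 46.2 and 15.8 TMM CPM of them where the other hip caps at 5 MPa had 8.79 to 13.6 and 4.10 to 6.19. Hist1h2bk lost its call in 10 of the 22 fits, and Hist1h2bh also without M52 or M53.

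The H3 genes had 1 call at 0 MPa and 3 at 5 MPa, all higher. Hist1h3i had 59.2, 22.9 and 50.9 TMM CPM in unloaded hip caps and 9.38, 15.9, 12.7 and 18.6 in unloaded metatarsals, with no overlap, and a log2 fold change of 1.61 (SE 0.51, adjusted p = 0.0245). Its call was lost without HC1 (1.13, adjusted p = 0.0755) or MC1, and without MC1 the difference of Hist1h3i was 0.96 (adjusted p = 0.450). At 5 MPa Hist2h3c2 was higher by 1.73 (SE 0.52, adjusted p = 0.0153), Hist1h3c by 1.22 (SE 0.41, adjusted p = 0.0258) and Hist1h3b by 1.14 (SE 0.42, adjusted p = 0.0451). All 3 lost their call without H53, Hist1h3c also without M51 or M52, and Hist1h3b in 10 of 22 fits that left out a library. Hist2h3c2, for example, had 23.5, 41.5, 80.2 and 11.5 TMM CPM in hip caps, H53 being the third, and 9.16, 8.33, 15.8 and 14.1 in metatarsals, and its difference without H53 was 1.17 (adjusted p = 0.0602).

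Among H4 genes, which all code for the same protein, Hist1h4d and Hist1h4k were higher in unloaded hip caps and Hist1h4a at 5 MPa. Hist1h4d, which shares only 14.7% of its words, had 90.2, 66.0 and 124 TMM CPM in hip caps and 33.7, 43.2, 46.4 and 55.4 in metatarsals at 0 MPa, with no overlap and a difference of 1.00 (SE 0.35, adjusted p = 0.0368). Its call was lost without HC1, HC3, MC1, MC2 or M504, with values from 0.68 (without MC1, adjusted p = 0.462) to 1.21. Hist1h4k had 45.9, 21.6 and 53.9 against 11.1, 10.1, 14.8 and 16.4, also apart, at 1.32 (SE 0.49, adjusted p = 0.0497), a call that 16 of 22 fits without a library lost. Hist1h4a differed by 0.88 at 5 MPa (SE 0.32, adjusted p = 0.0385), and its call was lost without H53, M51, M52 or M53.

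The cell makeup of the tissues moved with the comparison, and its part in the histone differences was not tested. All 12 cartilage markers were higher in hip caps at each pressure, and their sum ran from 23354 to 83544 TMM CPM in hip caps and from 2121 to 5530 in metatarsals. Of 12 skeletal muscle markers, 11, 11 and 8 were lower in hip caps at 0, 5 and 50 MPa, with sums of 17.1 to 56.3 against 496 to 2770. Of 7 osteoclast markers tested, 3, 7 and 6 were higher, with sums of 329 to 1726 against 37.5 to 79.7, and Calcr was listed at 0 in every metatarsal library. At 5 MPa 6 of 7 neutrophil markers tested were higher, with sums over 10 markers of 4.95 to 191 in hip caps and 1.46 to 5.09 in metatarsals and no marker listed at 0 in all libraries of a tissue. Over all pressures the sums of osteoblast, macrophage, erythroid and endothelial markers overlapped between the tissues. At 50 MPa the osteoblast sums were 1311.5 to 1860 in hip caps and 3502 to 4084 in metatarsals. The macrophage sums there were 161 to 315 and 73.1 to 86.9, and at 0 MPa 107 to 319 and 62.1 to 97.6. The shares of all genes called in these comparisons are given above.

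The library H53 had the highest neutrophil sum at 191. Among hip caps it also had the highest sum of macrophage markers, 695 where the lowest was 107, and of osteoblast markers, 6577 where the median was 1804. That osteoblast sum rests mostly on Col1a1, with 104042 counts in H53 beside 21182 of Ibsp and 1527 of Sp7. Ibsp was lower there than in HC1, which held 7380 counts of it. The TMM-scaled library sizes of H53 and HC1 were 19402710 and 3679659. H53 was also the hip cap library with the lowest cartilage sum, 23354, and it had no macrophage, neutrophil, osteoblast or endothelial marker at 0. Without H53 the calls at 5 MPa went from 17 to 11. At 0 MPa the count was 18 without H53, 5 without HC1 and 2 without MC1. These counts stand without the shares of all genes called in the same fits.

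Genes that act in S phase gave a separate view of replication. Of 26 DNA replication genes, 2 were higher (Mcm6 by 0.63 and Rpa2 by 0.67 on the log2 scale) and 2 lower (Tyms at -0.80 and Mcm7 at -0.70) in unloaded hip caps. At 5 MPa 14 were higher and 0 lower, among them Rrm2, a subunit of ribonucleotide reductase, at 1.79, Cdc45, part of the replicative helicase, at 1.42 and Fen1, the flap endonuclease, at 1.33. At 50 MPa 0 were called in either direction. Their summed level was 400 to 996 TMM CPM in hip caps (median 523) and 345 to 572 in metatarsals (median 387). H53 held the highest hip cap sum, 996, and the library with the highest Hist sum was also the one with the highest replication sum in 4 of 6 groups (H53, MC4, M53 and M504).

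The machinery that makes and removes histone transcripts showed small differences. Of 20 such genes, hip caps had 1 higher and 2 lower without pressure, 1 higher and 5 lower at 5 MPa, and 1 of each at 50 MPa. Cdk2, the S-phase kinase that activates Npat, was lower each time, with log2 fold changes of -0.71, -0.84 and -0.75. Npat, the coactivator of histone gene transcription, was lower without pressure (-0.81, adjusted p = 0.00475) and at 5 MPa (-0.43). Upf1, the helicase that starts histone mRNA decay, was higher by 0.60 (adjusted p = 0.0265) at 0 MPa, and Eri1, the exonuclease that trims the stem-loop, by 0.29 and 0.55 at 5 and 50 MPa. Slbp itself was not called, at 0.26 (adjusted p = 0.343), 0.11 and -0.02.

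Among 10 histone chaperones, Nasp, which carries H1 and stores H3 with H4, was lower in hip caps at all 3 pressures, at -1.34 (adjusted p = 3.14e-05), -0.93 and -0.85. Asf1a, which hands H3 and H4 to both assembly routes, was lower at 0 MPa (-0.88, adjusted p = 0.0253). Asf1b, the paralogue of dividing cells, was higher by 1.81 (adjusted p = 0.000183) at 5 MPa. Of 11 replication-independent histone genes, 1 was higher and 2 lower at 0 MPa, 2 and 5 at 5 MPa, and 0 and 2 at 50 MPa. The H3.3 gene H3f3a had differences of -1.12 at 0 MPa and -0.74 at 5 MPa, both called, and H2afy2, which codes for macroH2A2, was lower at all 3 pressures (-0.96, -1.26 and -1.55), while H2afx, the H2A.X of DNA damage signalling, was higher by 0.83 at 5 MPa.

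The second comparison asked what pressure did within a tissue. In metatarsals the histone genes did not move past the threshold. edgeR called 0 of 66 members at 5 MPa and 0 at 50 MPa, in comparisons where 0% of all genes were called, and DESeq2 also called 0 and 0. At an unadjusted p under 0.05 there were 2 and 1 of 64 Hist genes, 3.12 and 1.56% beside 3.24 and 3.89% of all genes. The median log2 fold changes were 0.06 at 5 MPa (38 of 64 positive) and 0.21 at 50 MPa (46 positive), beside 0 for all genes. The groups did not overlap for 2 Hist genes higher and 1 lower at 5 MPa, 4.69% beside 2.88% of all genes, and for 2 higher and 1 lower at 50 MPa, 4.69% beside 4.48%. Hist3h2a, for instance, ran from 14.6 to 23.1 TMM CPM at 0 MPa, 17.6 to 23.3 at 5 MPa and 19.0 to 23.5 at 50 MPa.

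In hip caps at 5 MPa, 0 of 66 members were called by edgeR beside 0.0188% of all genes (0.0094% in each direction), and 0 by DESeq2. An unadjusted p under 0.05 was found for 3 of 64 Hist genes, 1 higher and 2 lower, which is 4.69% beside 14.8% of all genes, and the median log2 fold change was 0.02 with 32 positive. This comparison lies across the sequencing runs, and the correction for run rests on the other groups.

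At 50 MPa most Hist genes had a fitted log2 fold change below 0 against unloaded hip caps, and few differences passed the test. Hist2h2aa2 and Hist4h4, 2 of 66 members, fell and 0 rose, beside 5.18% of all genes called (1.86% lower and 3.32% higher). The study, which used DESeq2, lists H2ac23, an H2A gene by its newer symbol, among the genes raised most in hip caps at 50 MPa only. With edgeR the highest fitted log2 fold change of a Hist gene was 7.39, without a call. The median log2 fold change of the Hist genes was -0.88, with 52 of 64 negative, where the median of all genes was 0.02. By family the medians were -1.07 in H1, with 5 of 5 tested negative, -0.97 in H2A (14 of 17), -0.12 in H2B (10 of 17), -1.24 in H3 (11 of 12) and -0.75 in H4 (12 of 13). At an unadjusted p under 0.05 there were 14, all lower, which is 21.9% of the Hist genes beside 22.6% of all genes. DESeq2 called 11 of 67, 1 higher and 10 lower, a count without its share of all genes. The groups did not overlap for 1 Hist gene higher and 5 lower, 9.38% beside 15.8% of all genes. Other ways of processing moved the median of the Hist genes between -1.19 and -0.32. The summed levels overlapped, at 1209 to 1431 TMM CPM at 50 MPa and 1161 to 2060.5 at 0 MPa. On total counts the means of the sum were 906 and 1019 CPM. The H2B sum had the higher mean at 50 MPa, 196 beside 185 TMM CPM.

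Hist2h2aa2 had 192, 85.8 and 221 TMM CPM in unloaded hip caps and 66.2, 79.2 and 30.9 at 50 MPa. All values at 50 MPa lay below those at 0 MPa, and the log2 fold change was -2.03 (SE 0.43, adjusted p = 0.0195). The sum with Hist2h2aa1 had 204, 93.6 and 224 at 0 MPa and 71.7, 84.8 and 94.7 at 50 MPa. It overlapped, since HC2 lay below H504, and the log2 fold change was -1.62 (SE 0.34, adjusted p = 0.0169). The libraries left out were 144 in HC4 and 29.7 in H502. Without HC3, the single unloaded hip cap of the unstranded type, which all hip caps at 50 MPa share, Hist2h2aa2 was at -2.47 with an adjusted p of 0.269 and the sum at -2.05 with an adjusted p of 0.2498. The sum that includes the 3 overlapping genes differed by -1.41 (SE 0.30, adjusted p = 0.0164).

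Hist4h4, the H4 gene alone on chromosome 6 (136801553 to 136804415, minus strand), had 46.5, 16.7 and 31.8 TMM CPM in unloaded hip caps and 13.1, 10.7 and 13.6 at 50 MPa, again without overlap. The log2 fold change was -1.53 (SE 0.39, adjusted p = 0.0333). Its call was lost without HC3, H501, H503, MC1 or M504, with values from -2.07 to -1.41. Hist4h4 in H502, which the authors left out, stood at 30.8, within the range of unloaded hip caps, and HC4 at 18.4. At 5 MPa the gene stood at 9.64, 7.66, 15.3 and 10.9, as low as at 50 MPa, without a call.

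Leaving out 1 library changed the count of calls in hip caps at 50 MPa from 2 to between 0 (without HC3) and 11 (without H53). It was 4 without HC2, H54 or H504 and 1 without H501, H503, MC1 or M504. The shares of all genes called in these fits are not given. Markers moved in the same comparison. The cartilage sum was 51971 to 83544 TMM CPM in unloaded hip caps and 34755 to 40272 at 50 MPa, with 2 of 12 markers called lower (Sox9, the chondrocyte transcription factor, at -1.23 on the log2 scale, and Comp at -1.35). The skeletal muscle sum was 17.1 to 22.01 and 38.6 to 56.3, with 1 of 12 markers called higher (Ttn, at 1.95), and the osteoclast sum was 329 to 532 and 552 to 1726, with 0 of 7 tested called. Those 3 sums did not overlap. Of 7 osteoblast markers 1 was called lower (Sp7, at -1.07), and of the macrophage, neutrophil, erythroid and endothelial markers 0 were called. Of the genes around histone transcripts, Npat was higher by 0.88 (adjusted p = 0.0319), Srrt, the ARS2 protein of the cap complex, lower at -0.62 (adjusted p = 0.0431), Rpa2 lower at -1.01 and the importin Ipo4 lower at -0.71. The part of any of these in the histone values was not tested.

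Whether pressure acted differently in the tissues was tested as an interaction. Of 66 members, 0 passed at 5 MPa and 0 at 50 MPa with edgeR, beside 0.0188% of all genes at 5 MPa (0.0094% in each direction) and 0.132% at 50 MPa (0.0799% higher and 0.0517% lower). At 5 MPa 4 Hist genes had an unadjusted p under 0.05, 6.25% beside 11.2% of all genes, and DESeq2 called 0. At 50 MPa 20 of 64 Hist genes had an unadjusted p under 0.05, all with a lower response in hip caps, which is 31.2% beside 18.3% of all genes. DESeq2 called 9 of 67, 1 higher and 8 lower, again without its share of all genes. The median difference of responses at 50 MPa was -1.06, with 54 of 64 negative, beside 0.06 for all genes.

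The sum of Hist2h2aa1 and Hist2h2aa2, added after seeing the data, gave an interaction of -2.01 (SE 0.39, adjusted p = 0.0427) at 50 MPa. The call was lost in 17 of 22 fits without a library, with values from -2.35 to -1.71 over the 22 and an adjusted p of up to 0.175. With the 3 overlapping genes added to the sum the interaction was -1.78 (SE 0.34, adjusted p = 0.0422). It fell in hip caps as given above, and in metatarsals it had 46.5, 62.9, 50.9 and 67.0 TMM CPM at 0 MPa and 71.1, 79.8, 71.9 and 134 at 50 MPa, a difference of 0.39 (SE 0.25, adjusted p = 1). The 50 MPa values of the metatarsals were above all their values at 0 MPa, with M504 the highest.

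The transcript models did not separate the members by direction. For hip caps at 50 against 0 MPa the median log2 fold change was -1.19 in the models without a stem-loop match, -0.64 in those that run over 100 bases past it and -0.93 in those that stop within 100 bases. For the tissues at 0 MPa the medians were 0.87, 0.50 and 0.88, and at 5 MPa 0.57, 0.30 and 0.71. No test was made over these classes.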

How the data were processed

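Total RNA of 24 mouse hip cap and metatarsal libraries had been sequenced. The authors trimmed reads with Trim Galore 0.6.5 (quality 20, at least 20 bases), used kallisto (GRCm39) for transcript abundance and tximport for gene sums, and deposited estimated counts without normalisation. Names, models and sequences came from GENCODE release 21 and RefSeq, both GRCm38. Counts were rounded and 21283 of 52178 genes kept by filterByExpr. edgeR 4.0.16 (R 4.3.3, TMM, robust quasi-likelihood) was fitted to 22 libraries with terms for group, sequencing run and library type. The run was read from the colour strip of the clustering figure in the study, where it differs in number from the methods and is therefore uncertain. Tests were two-sided with Benjamini-Hochberg adjustment over all genes at 0.05, and SE is the log2 fold change over the root of F. DESeq2 1.42.0, other scalings, filters, batch terms and left-out libraries were alternatives. Scripts were tested on simulated data. Members, lists and alternatives were chosen with earlier results of these data known. Named members are, per family, the 3 highest per kilobase and, per comparison, those past the threshold.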

Additional observations from a re-analysis of the deposited data

Results flagged for a closer look

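Among 96 groups of 4 libraries examined, 11 held a library that lay far from the other 3 by Dixon's test, of which chance alone flags about 5% of groups. M504, the unstranded metatarsal library at 50 MPa, was the highest of its group in the H2A sum (413 TMM CPM, others 222 to 241), the H3 sum (323, others 147 to 170), the sum of all Hist genes (1744, others 897 to 1036) and Hist4h4 (22.5, others 15.1 to 16.1). Among hip caps at 5 MPa, H53 was far above the others in the H2B sum (428, others 129 to 165) and the H4 sum (556, others 210 to 260), and it was the single library with any Hist3h2ba (0.0515, others 0). H54 was highest for H1f0, at 111 where the others had 85.4 to 88.5. H502, which the authors left out, was the highest hip cap at 50 MPa for Hist3h2ba (1.57, others 0 to 0.139) and Hist4h4 (30.8, others 10.7 to 13.6). In metatarsals at 50 MPa, M501 held 1.45 TMM CPM of Hist1h2ao, where the others had 0 to 0.223.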

How the results depend on the processing

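The counts of members called at 0 MPa between tissues (10), at 5 MPa (17), at 50 MPa (3) and in hip caps at 50 against 0 MPa (2) moved with the processing. DESeq2 gave 6 between tissues at 50 MPa, 11 in hip caps at 50 MPa and 9 in the interaction at 50 MPa (0 with edgeR). Its share of all genes is not given beside them. Library sizes alone gave 6, 6 and 20 between tissues and 0 in hip caps at 50 MPa, and turned Hist1h2bc at 0 MPa to -0.14 and Hist1h1c at 5 MPa to -0.065. Without a filter the counts were 5 and 9 between tissues at 0 and 5 MPa and 1 in hip caps at 50 MPa. At least 10 counts in every library gave 5 in hip caps and 1 in the interaction at 50 MPa. All 24 libraries gave 28 and 7 between tissues at 0 and 5 MPa and 0 in hip caps at 50 MPa. Without batch terms they were 30 and 9 between tissues, and 3 and 1 in hip caps at 5 and 50 MPa. With library type as the only batch term they were 16 and 6 between tissues at 0 and 50 MPa and 2 in hip caps at 5 MPa. Each tissue alone and an offset for GC content each gave 0 in hip caps at 50 MPa, and joining near-copies gave 2 in the interaction at 50 MPa. The shares of all genes called under these alternatives are not given. The counts therefore do not tell whether the histone calls moved or the calls of all genes did. The cause was not tested. On total counts the ratio of hip caps to metatarsals at 0 MPa was 0.991 for H1, 1.08 for H2A, 0.754 for H2B and 1.07 for H4, and over protein-coding counts it was 1.37 for H1, 1.47 for H2A, 1.05 for H2B, 1.48 for H3 and 1.46 for H4.

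Leaving out each library in turn gave 2 to 18 calls between tissues at 0 MPa, 8 to 27 at 5 MPa, 1 to 9 at 50 MPa, 0 to 1 in hip caps at 5 MPa, 0 to 11 at 50 MPa and 0 to 4 in the interaction at 50 MPa. The shares of all genes called in these fits are not given either. The count between tissues at 5 MPa was 27 without H54, 11 without H53 or M51, 10 without M53 and 8 without M52. At 50 MPa it was 5 without HC1 or H54, 9 without H53 and 1 without M504. The call in hip caps at 5 MPa came without HC2. The interaction at 50 MPa had 4 calls without HC2 or H53 and 1 without H504. Metatarsals had 0 calls at either pressure in every alternative, as had the interaction at 5 MPa. The replicate numbers, as a replicate block, gave 1 call in the interaction at 50 MPa. Over 20 pairs of equally numbered libraries the residual correlation was -0.13 to 0.16, so the numbers do not pair the samples. Depth limits the low members, such as Hist3h2ba with 1 to 3 counts in a group of hip caps.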
